A study of Mus musculus with 12 samples.

Results

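GABA receptor subunits of the mouse hippocampus were represented by 7 named genes, the GABA-A subunit genes *Gabra2*, *Gabra4*, *Gabra5*, *Gabrb1* and *Gabrb2* and the GABA-B subunit genes *Gabbr1* and *Gabbr2*. Every peak that the deposited lists assign by gene name to any of the 7 genes was taken, whatever its value. They held 15 of the 33622 m6A peaks of WT mice, 16 of the 34935 peaks of *Tyrobp* KO mice and 6 of the 5640 rows of the table that compares the genotypes. A peak was listed for 6 of the 7 genes, and *Gabra5* had no peak in either list and no row in the table.

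GABA is the main inhibitory transmitter of the brain. GABA-A receptors are chloride channels built from a ring of subunits, in which alpha and beta subunits form the site that binds GABA, and they carry fast inhibition. GABA-B receptors are G protein-coupled receptors made of *Gabbr1*, which binds GABA, and *Gabbr2*, which couples to the G protein and brings the pair to the cell surface, and they carry slow inhibition. N6-methyladenosine (m6A) is a methyl mark on adenosines of mRNA that is known to gather around stop codons and in 3′ UTRs, and proteins that read it affect how long an mRNA lasts and how it is translated.

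All mice were C57BL/6 and 6 months old, and the groups were WT and *Tyrobp* KO, the latter a germline line carrying a short nuclease-made deletion in an exon of *Tyrobp*, an adaptor protein of microglia, with WT littermates as controls, all of them male. Each genotype gave 3 samples of hippocampal RNA, each pooled from 3 mice, and each sample gave a library immunoprecipitated with an antibody against m6A (IP) and a library of the same RNA without that step (input), 12 libraries with 61189368 to 73554506 valid reads. The authors called peaks of IP over input on the 3 samples of a genotype together, so a peak has 1 fold enrichment for each genotype and no replicate error. These enrichments could not be tested between genotypes, and a higher or lower value is a description of those 2 lists. The p-values of the authors' own comparison of the genotypes were not used. The depth behind a single peak is unknown. *Tyrobp* itself had 0 peaks in both lists, so the peaks do not check the genotype labels. Peaks were listed in both genotypes for all 5 marker genes of hippocampal excitatory neurons, all 4 of neurons in general, all 3 of astrocytes, all 3 of oligodendrocytes and all 4 of microglia. Of the 4 markers of inhibitory neurons, 3 had a peak in WT and 2 in *Tyrobp* KO mice, with *Gad1* absent from both lists and *Pvalb* from the *Tyrobp* KO list. The IP libraries had 49.16% to 50.24% G and C bases in WT and 48.46% to 49.33% in *Tyrobp* KO mice, and the part of this difference in any peak value was not tested. Enrichment is set against input at the same place. In whole hippocampus, fewer cells that make a transcript and less of that transcript in each cell cannot be told apart.

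Short stretches show what lies under the peaks near RefSeq start sites of these genes, since the reference used here gives sequence only around start sites. They come from RefSeq on GRCm38.p6, which held a start window for all 7 genes, and are written 5′ to 3′ on the strand of the gene.
Gabra4, chr5:71658278-71658307, minus strand: ttgtttccagccAAACCctggtaaagggag
Gabrb1, chr5:71699740-71699769, plus strand: acacACACACACAGGCACGTTGGCTCcttt
Gabbr1, chr17:37045996-37046015, plus strand: gcaccctccttcctccctcc
The *Gabra4* stretch lies in the 5′ UTR peak that only the WT list holds, and its capitals mark a match to the m6A consensus. *Gabra4* and *Gabrb1* overlap there on opposite strands, so the strand of the RNA under that peak is not certain either. In *Gabrb1* the capitals mark a 22-base block of a WT peak that lies before the RefSeq start site at 71699932. That peak lies 41135 bp from the start of the assigned transcript, in an exon of another gene on the opposite strand. The strand shown may therefore not be that of the RNA under the peak. The *Gabbr1* stretch is the part of the 5′ UTR peak of WT mice that the window reaches, and it held no match. The consensus was searched as NNACN, with A, G or T at the first place, A or G at the second and A, C or T at the last, which makes 18 different words, on the transcribed strand only and with overlaps allowed. At least 1 of them occurs in the first 50 transcribed bases of 54.4% of all 32851 start windows, so a match there is common.

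Member peaks lay mostly in 3′ UTRs. In WT mice 11 of 15 were annotated to a 3′ UTR (73.3%, exact 95% binomial interval 44.9% to 92.2%), and in *Tyrobp* KO mice 12 of 16 (75%, 47.6% to 92.7%). Among all peaks these shares were 47.2% and 49.3%. The intervals cover counting error only, not errors of annotation, and peaks of 1 gene share a transcript. The WT *Gabrb1* peak from chr5:72122067 is classed as 3′ UTR, and its *Tyrobp* KO partner as another exon. Median fold enrichment of the member peaks was 3.56 in WT and 5.12 in *Tyrobp* KO mice, against 5.54 and 5.72 over all peaks. The member medians are over different sets of peaks, and the median ratio at matched member peaks was 1.13. The median exonic length was 391 bp and 373 bp, against 326 bp and 301 bp over all peaks. Peaks split over 2 or more exons made up 6 of the 15 WT and 7 of the 16 *Tyrobp* KO member peaks, 40% and 43.8%, against 28.9% and 26.5% of all peaks.

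**Figure D1:**
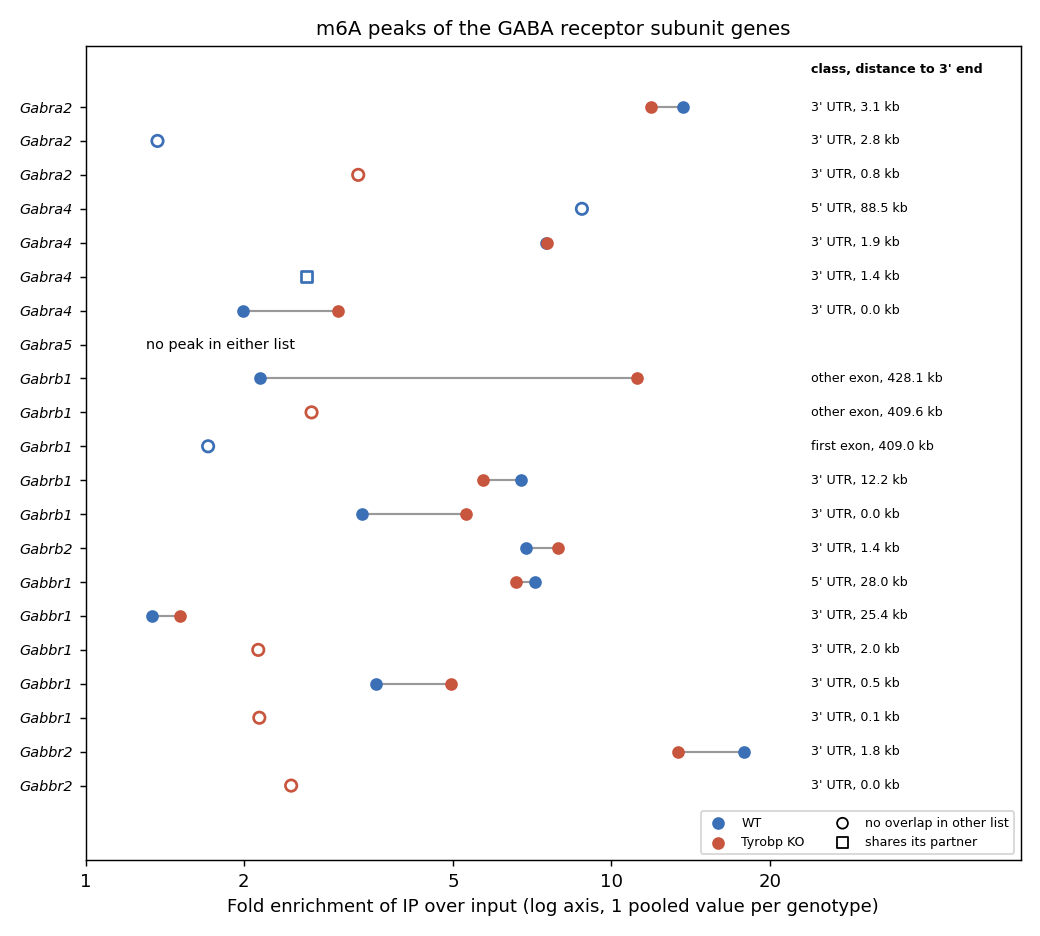
Fold enrichment of IP over input (log axis) at every peak of the 7 genes, 1 row for each matched pair or unmatched peak, ordered in each gene from the start towards the 3′ end, with the peak class and its distance to the transcript's 3′ end at the right. Filled points joined by a line are matched peaks in WT (blue) and Tyrobp KO (red) mice, open circles are peaks with no overlap in the other list, and the open square is a WT peak covered by the same Tyrobp KO peak as its neighbour. The strongest peaks are those of Gabbr2 (17.9 and 13.4) and Gabra2 (13.7 and 11.9), both lower in Tyrobp KO mice, and the widest gap is at a Gabrb1 exon that another gene shares (2.15 and 11.2).

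Alpha subunits with their beta partners form the GABA site. Among the alpha subunit genes that are members here, *Gabra2* was the most strongly enriched. Its main 3′ UTR peak at chr5:70960683-70961222 had a fold enrichment of 13.7 in WT, above 88.3% of all WT peaks. The *Tyrobp* KO peak there had 11.9, above 84.5% of that list, and a ratio of *Tyrobp* KO to WT of 0.869. The lists also differed at weaker places of the same 3′ UTR. WT mice had a 61-bp peak of 1.37 at chr5:70960443-70960503, and *Tyrobp* KO mice had a 211-bp peak of 3.3 at chr5:70958406-70958616, nearer to the 3′ end and with a p of 5e-22 for IP over input. Neither overlapped a peak of the other list.

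*Gabra4*, an alpha subunit known from receptors outside synapses in the dentate gyrus, had 4 peaks in WT and 2 in *Tyrobp* KO mice. The main peak joined a block of the 3′ UTR to a block in an upstream exon, within chr5:71571666-71623957 in WT mice. Its enrichment was nearly the same in both genotypes, at 7.51 in WT and 7.54 in *Tyrobp* KO mice. The *Tyrobp* KO peak was longer, with 1170 against 661 exonic bp, and also covered a separate WT peak of 2.63 at chr5:71571187-71571577. The exonic length under all *Gabra4* peaks was therefore close, 1294 bp in WT and 1381 bp in *Tyrobp* KO mice, although the number of peaks was not. At the very 3′ end, chr5:71569749-71569899, enrichment was 1.99 in WT and 3.02 in *Tyrobp* KO mice, a ratio of 1.52. The 5′ UTR peak at chr5:71658218-71658308, over the AAACC match printed above, had 8.79 in WT mice with a p of 0.00025 and an FDR of 0.0012. No *Gabra4* peak lay there in *Tyrobp* KO mice. By enrichment it was the strongest *Gabra4* peak of WT mice, and by p the weakest of the 4.

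*Gabra5*, an alpha subunit known to be abundant in the hippocampus, has a start window with 1 AAACC match, yet no peak. An absent peak says only that none passed the peak caller's threshold, and the reads behind it are not analysed here.

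*Gabrb1*, 1 of the beta subunits, had 4 peaks in each list, and they fell into 2 sets. The first set, 2 peaks in each list, lies towards the 3′ end of the gene. The peak that spans chr5:72122067-72136817 had 6.73 in WT and 5.7 in *Tyrobp* KO mice, a ratio of 0.847. The peak at the 3′ end, chr5:72148528-72149037, had 3.35 in WT and 5.3 in *Tyrobp* KO mice, a ratio of 1.58, and was longer in *Tyrobp* KO mice, with 630 against 510 bp. The higher genotype thus differed between the upstream and the terminal peak of 1 transcript.

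The second set lies 409014 to 428097 bp before the end of the assigned *Gabrb1* transcript, in exons of another annotated gene, ENSMUSG00000105489, which overlaps *Gabrb1*. The exon numbers of that gene fall as the coordinates rise, while *Gabrb1* runs with the coordinates, so the 2 genes lie on opposite strands. Whether the peak caller used the strand is not given in the sources used here, so reads of the 2 genes cannot be told apart. The matched peak there, chr5:71680594-71680682 in WT and chr5:71680298-71680682 in *Tyrobp* KO mice, had enrichments of 2.15 and 11.2, a ratio of 5.21 above 99.4% of all matched pairs. It compares an 89-bp peak with a 385-bp peak, and its p was 0.0083 in WT and 5e-11 in *Tyrobp* KO mice. The list-only peaks of this set were at 1.71 in WT, with an FDR of 0.0692 and the CA-rich block printed above, and at 2.69 in *Tyrobp* KO mice, with a p of 0.00078.

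*Gabrb2*, the beta subunit of the commonest GABA-A receptors, had a single peak in each list. It spanned chr11:42602193-42627588 in WT mice, with an enrichment of 6.88. In *Tyrobp* KO mice it reached into 1 more exon, from chr11:42597744, with an enrichment of 7.93 and a ratio of 1.15. Over both beta and alpha genes, 5 of the 7 GABA-A pairs had a ratio above 1, in a range from 0.847 to 5.21.

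*Gabbr1*, the GABA-B subunit that binds GABA, had 3 peaks in WT and 5 in *Tyrobp* KO mice. The 5′ UTR peak, chr17:37045996-37046266, had 7.16 in WT and 6.6 in *Tyrobp* KO mice. A weak peak with the same bounds in both lists, chr17:37049358-37049663, had 1.34 and 1.51. It is classed as 3′ UTR, yet lies 25404 bp before the end of the transcript that the annotation assigns to it. The 3′ UTR peak at chr17:37074078-37074527 had 3.56 in WT and 4.95 in *Tyrobp* KO mice, a ratio of 1.39. The *Tyrobp* KO list held 2 further 3′ UTR peaks on either side, at chr17:37072999-37073089 with 2.13 and at chr17:37074797-37074917 with 2.14. The latter lies beyond the RefSeq end of the gene at 37074305 and within the Ensembl transcript used by the authors.

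*Gabbr2*, the GABA-B subunit that couples to the G protein, had the strongest peak of the 7 genes. It spanned chr4:46664104-46667570 over 2 exons, with 17.9 in WT, above 94.5% of all WT peaks. In *Tyrobp* KO mice it had 13.4, a ratio of 0.749 that was the lowest of the members. A second peak was listed only in *Tyrobp* KO mice, at the transcript's 3′ end, chr4:46662305-46662395, with 2.46 and a p of 2e-63. The 4 GABA-B pairs had ratios from 0.749 to 1.39, and 2 of them were above 1.

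**Figure D2:**
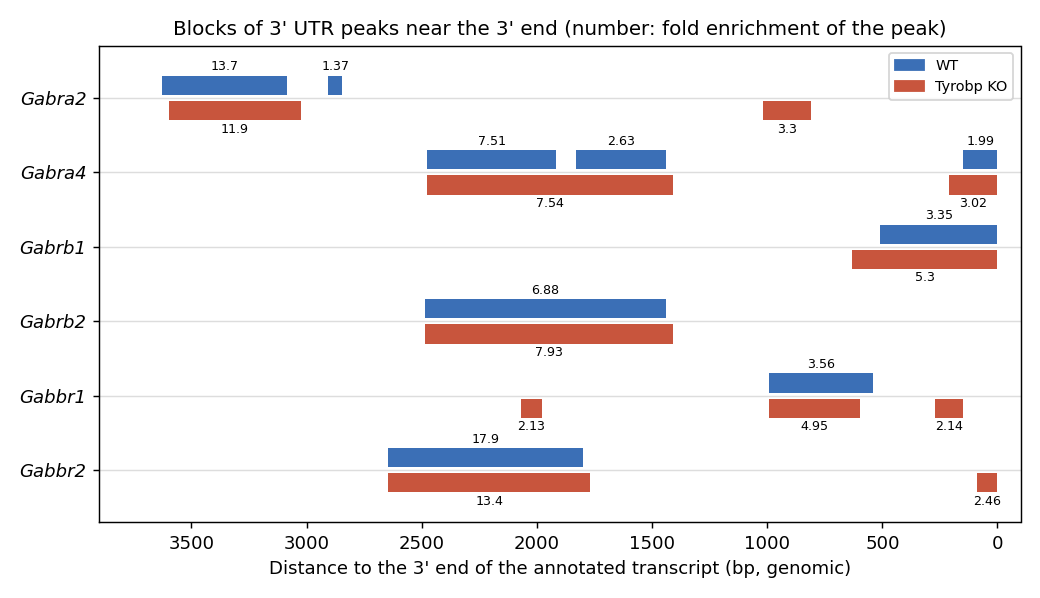
Exonic blocks of 3′ UTR peaks near the 3′ end of the annotated transcript (x axis, genomic bp, end at the right) for the 6 genes with peaks, WT in blue above and Tyrobp KO in red below, each with the fold enrichment of its peak. The main blocks of Gabra2, Gabrb2 and Gabbr2 start and end within similar bounds in both genotypes, the main Gabra4 block reaches nearer to the end in Tyrobp KO mice, and Tyrobp KO mice alone have blocks nearer to the end in Gabra2 (3.3), Gabbr1 (2.14) and Gabbr2 (2.46).

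Matched over both lists by an overlap of at least 1 bp of exonic blocks, the members gave 11 pairs, against 23587 for all genes. The ratio of *Tyrobp* KO to WT enrichment was above 1 in 7 of the 11 pairs, against 53.6% of all pairs. Its median was 1.13, a log2 of 0.17, against 1.03 and 0.05 over all pairs. The direction turned, to a median log2 of -0.16 with 4 of the 6 genes lower, when the strongest peak of each gene was compared whatever its position. A ratio of at least 1.5 was found in 3 member pairs, where 16.0% of all pairs had one: the terminal peaks of *Gabra4* and *Gabrb1* and the *Gabrb1* peak shared with another gene. After division by the median ratio of all pairs, the terminal *Gabra4* pair had a log2 of 0.55 and was no longer past that fold, which left 2. No member pair was lower by that fold, where 13.2% of all pairs were, and the lowest was *Gabbr2* at 0.749. Without the 4 peaks in exons of another gene, 10 pairs were left, 6 of them above 1, in a range from 0.749 to 1.58 with 2 past 1.5-fold. With so few pairs and 1 value a genotype, these counts describe the members and nothing beyond them.

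**Figure D3:**
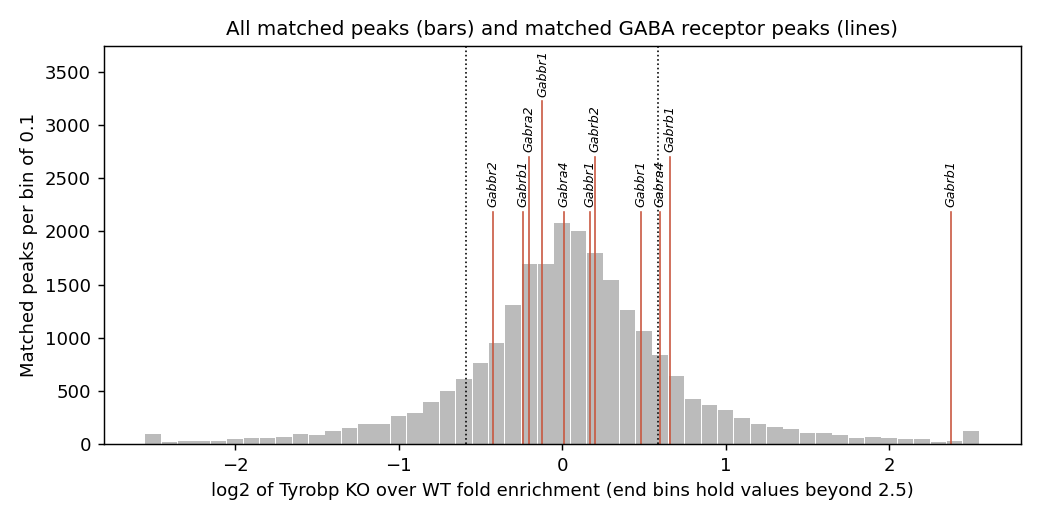
Number of matched peaks of all genes (grey bars, bins of 0.1) by the log2 ratio of Tyrobp KO to WT fold enrichment, with the 11 GABA receptor pairs as red lines and a ratio of 1.5 either way as dotted lines. There 10 of the 11 pairs lie between -0.42 and 0.66, within the bulk of all pairs, and the Gabrb1 pair at 2.38 lies in the upper tail.

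Without an overlapping peak in the other list were 3 of the 15 WT member peaks, where 22.5% of all WT peaks were so, and 5 of the 16 *Tyrobp* KO member peaks, where the share was 24.6% of all. Of the 8 peaks, 6 had enrichments from 1.37 to 2.69, *Gabra2* in *Tyrobp* KO mice had 3.3 and the *Gabra4* 5′ UTR peak had 8.79. Over all genes the median enrichment of such peaks was 4.59 in WT and 4.45 in *Tyrobp* KO mice, against 5.92 and 6.19 for matched peaks. The 6 member rows of the authors' comparison table overlapped the *Gabra2* peak of *Tyrobp* KO mice, the terminal and the 5′ UTR peaks of *Gabra4*, the upstream matched peak of *Gabrb1*, and the peaks of *Gabbr1* at chr17:37072999 and chr17:37074078. *Gabrb2* and *Gabbr2* had no row.

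Of the 14 other GABA-A subunit genes, 10 had peaks, and *Gabra6*, *Gabrp*, *Gabrr1* and *Gabrr3* had none. Their 16 matched pairs had a median log2 ratio of 0.07, with 3 pairs higher and 2 lower by at least 1.5-fold. Over all genes, 16.0% of matched pairs were higher and 13.2% lower by that fold, so these counts are near the background. The higher pairs were an exon of *Gabrg1*, from 3.32 to 5.18, an exon of *Gabre*, from 3.42 to 6.67 with a p of only 0.017 and 0.039, and a *Gabrg3* pair, from 3.14 to 6.31. The *Gabrg3* pair sets a WT peak of wider span classed as 3′ UTR, chr7:56724350-56729322, against a *Tyrobp* KO peak classed as another exon, chr7:56724440-56724680. Lower were another *Gabre* exon, from 30.3 to 19.1, and the terminal 3′ UTR peak of *Gabra3*, from 28.3 to 6.74. The latter had the lowest ratio of the family at 0.238, with a p for IP over input of 1e-11 in WT and 2.5e-15 in *Tyrobp* KO mice. The 5′ UTR pair of *Gabra3* went the other way, at 4.27 and 5.27, and stayed within 1.5-fold. The pairs of *Gabrd* (3.13 and 2.65) and *Gabrr2* (10.6 and 14.5) stayed within 1.5-fold. So did the 3 pairs of *Gabrq*, with ratios of 0.769, 1.09 and 1.31.

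Of 9 genes for GABA synthesis, transport and breakdown, 7 had peaks, and their 7 pairs had a median log2 ratio of 0.44. Of these pairs, 2 were higher and 1 lower by at least 1.5-fold. For this and the next 2 lists, the shares over all matched pairs were 16.0% higher and 13.2% lower. The terminal peaks of the GABA transporters *Slc6a11*, from 5.18 to 7.77, and *Slc6a12*, from 8.79 to 17.2, were higher by at least 1.5-fold. Of 13 genes for the scaffold, clustering and traffic of GABA-A receptors, 11 had peaks, and their 20 pairs had a median of -0.18, with 3 higher and 4 lower. *Shisa7*, an auxiliary subunit, had 2 of the higher pairs, from 4.39 to 7.05 and from 4.23 to 10.5. Both change exon class between the lists, and its 3′ UTR pair stayed within 1.5-fold, at 6.36 and 6.14. *Lhfpl4*, which links the receptors to neuroligin, had 2 of the lower pairs, from 2.56 to 1.69 and from 8.4 to 4.34. Its strongest pair, 13.2 and 10.9, stayed within 1.5-fold. The other 2 lower pairs were 5′ UTR peaks of *Nlgn2*, that neuroligin, from 4.64 to 2.33, and *Nsf*, a membrane fusion factor, from 4.29 to 2.78. The strongest *Nlgn2* pair, 13.6 and 12, stayed within 1.5-fold. The 6 genes for auxiliary subunits and effector channels of GABA-B receptors all had peaks, and their 10 pairs had ratios between 0.855 and 1.23, none past 1.5-fold.

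**Figure D4:**
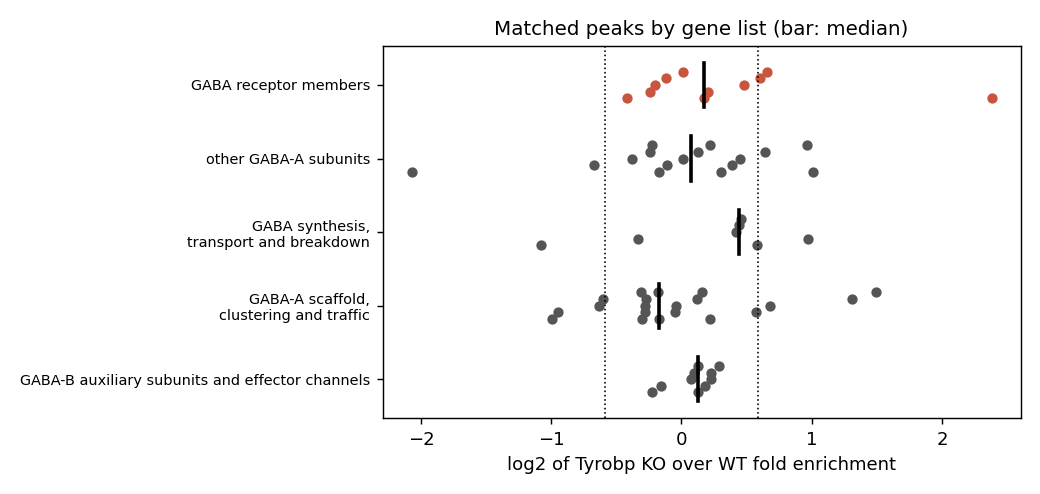
Log2 ratio of Tyrobp KO to WT fold enrichment (x axis) for each matched peak of the GABA receptor members (red) and of 4 other gene lists of GABA signalling (grey), with the median of each list as a black bar and a ratio of 1.5 either way as dotted lines. The medians are 0.17, 0.07, 0.44, -0.18 and 0.13 from top to bottom, and the spread within each list other than the GABA-B partners is wider than the distance between the medians.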

How the data were processed

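Hippocampal RNA pooled from 3 mice made up a sample, and MeRIP-seq was run on 3 such samples of WT and 3 of *Tyrobp* KO mice. The authors cleaned the reads with fastp, mapped them with HISAT2 to the mouse genome (Ensembl v96, GRCm38 coordinates), called peaks with exomePeak on the 3 samples of a genotype together and annotated them with ChIPseeker. Versions are not given in the sources used here. The authors deposited the counts of reads of each library with the percent of G and C bases. For each peak they deposited the fold enrichment (the ratio of IP over input), the p-value of that enrichment (up to 0.05, listed as 0 where too small for the file format) and the log10 of its FDR, treated as a score. Their comparison table also holds log2 fold changes, p-values and FDRs between the genotypes, of which none was used; only its positions were.

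Member peaks were found by gene name. Peaks of the lists were matched within a gene by the mutually largest overlap of exonic blocks, and the ratio of *Tyrobp* KO to WT enrichment was taken, with 1.5-fold as the threshold for naming. Binomial intervals are Clopper-Pearson at 95% and cover counting error only. No test between genotypes was possible on 1 pooled value each. Named are all members with all their peaks, every other GABA receptor subunit gene with a peak, and genes of the other lists with a pair past 1.5-fold; a few genes that meet this rule are not reported here by name. The members and lists were chosen with earlier results of these data known. The matching was tested on simulated peaks with at most 1 partner each, of equal length. Peaks that compete for a partner or differ in length were not simulated. Python 3.11.15, numpy 2.4.6, scipy 1.17.1 and matplotlib 3.10.9 were used. Peak sequences outside start windows and proteins were not analysed here.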

Additional observations from a re-analysis of the deposited data

How the results depend on the processing

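No paired analysis was possible because peaks were called on the 3 samples of a genotype together, and for the same reason no library could be left out. Over all alternatives tried, 26 of 35 recomputed summary values and 30 of 32 recomputed single peaks were counted as unchanged. That count allowed some movement, such as from 15 to 11 WT member peaks at an FDR below 1e-5. Another overlap rule cannot alter the ratio of a pair that it keeps, so many single-peak values could not move. A fold enrichment of at least 4 left 7 WT and 9 *Tyrobp* KO member peaks. The median log2 ratio of 0.17 became 0.09 with a reciprocal overlap of 50%, which drops the *Gabrb1* pair of unequal lengths, 0.12 after division by the median ratio of all pairs, and 0.09 without peaks in exons of another gene, an alternative added after the data were seen. It turned to -0.16 when the strongest peak of each gene was compared whatever its position, and 4 of the 6 genes were then lower. There *Gabra4* was set in WT mice by its 5′ UTR peak of 8.79. *Gabrb1*, at 6.73 in WT and 11.2 in *Tyrobp* KO mice, was set in the latter by the peak in an exon of another gene. At a threshold of 2-fold 1 pair was higher, the *Gabrb1* pair shared with another gene. The terminal *Gabra4* pair, at 0.60, was 0.55 after division by the median and no longer past 1.5-fold, and the main *Gabra4* pair moved from 0.01 to -0.04. WT peaks without a partner numbered 5 with the reciprocal overlap and 0 when only peaks with an FDR below 1e-5 were kept in both lists, while the *Tyrobp* KO count stayed at 5 there. The depth behind each peak is unknown, so its counting error could not be given.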

Other observations

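Distance to the 3′ end was examined after the member values had been seen. Within 500 bp of the end of the assigned transcript the members had 2 pairs, those of *Gabra4* and *Gabrb1*, with ratios of 1.52 and 1.58, and the 9 pairs farther away had a median log2 ratio of 0.01. Of the 5 *Tyrobp* KO member peaks in that zone, 2 had no WT partner (*Gabbr1* and *Gabbr2*), and 1 is the 5′ UTR peak of *Gabbr1*, which the annotation assigns to a short transcript. Over all genes, 6396 pairs lay within 500 bp of the end, with a median log2 ratio of 0.11, and 18.8% of them were higher and 11.9% lower by at least 1.5-fold in *Tyrobp* KO mice. For the 17191 pairs farther away the median was 0.03, with 14.9% higher and 13.7% lower. Peaks without a partner made up 27% of the *Tyrobp* KO and 17.4% of the WT peaks within that zone, and 23.7% and 24.2% outside it. These are values of 1 pooled list for each genotype, and no test was made.

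*Gabra4* and *Gabrb1* lie head to head on chromosome 5: the RefSeq start of *Gabrb1*, at 71657921 on the plus strand, lies within *Gabra4*, whose start is at 71658308 on the minus strand. The WT-only 5′ UTR peak of *Gabra4*, from 71658218 to 71658308, lies in this overlap.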
